A study of Mus musculus with 8 samples.

Results

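The 10 genes described here encode enzymes that use or supply arginine (Arg1, Arg2, Nos2, Ass1), a carrier that imports it (Slc7a2), enzymes that make or break down polyamines (Odc1, Srm, Sms, Sat1), and the enzyme that makes itaconate (Acod1). They were taken by name from a table of raw read counts for 55450 genes, and all 10 were found there. Their mRNA was measured in 8 libraries of myeloid cells sorted from mouse brain tumors, 5 of bone marrow-derived macrophages (BMDM) and 3 of microglia. BMDM were sorted as F4/80+, CD11b+, CD45+, CD49d high, Ly6G- and Ly6C low or negative. Microglia, the resident macrophages of the brain, were sorted as F4/80+, CD11b+, CD45 low, CD49d low or negative, Ly6G- and Ly6C low or negative. All libraries came from WT mice carrying orthotopic tumors of GL261, an isogenic mouse glioma line, so no library here comes from a brain without tumor. The labels give no strain, age or sex, and do not say whether each library is 1 mouse or a pool, so the p-values speak of the spread among libraries. Sex-linked RNA, given with Sms, differed between libraries within both groups.

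Arginine is a shared substrate. Arginase splits it into ornithine and urea, while the inducible nitric oxide synthase turns it into nitric oxide and citrulline, and ornithine in turn feeds the polyamines putrescine, spermidine and spermine. In mouse macrophages Arg1 is known as a gene of alternative activation, induced through interleukin 4 and 13, and Nos2 and Acod1 as genes of the response to bacterial products and interferon-gamma. Macrophages that use up arginine are known to restrain T cells, which is why these genes are read in studies of immune suppression in tumors.

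Library totals ran from 5890406 to 9169531 counts in BMDM and from 10491469 to 16659154 in microglia. Gm42418, a gene model overlapping ribosomal RNA, split the BMDM libraries, since it took 41.2% of counts in BMDM 4, 48.9% in BMDM 5 and 14.8% to 19.8% in the other BMDM, against 34.0% to 47.0% in microglia. BMDM 4 and BMDM 5 had 13346 and 14638 genes with a count, against 17572 to 22809 in the other 6 libraries. The markers went with the sort labels. Of 10 microglial markers 8 were lower in BMDM, with sums of 787 to 1730 CPM in BMDM and 2653 to 7863 CPM in microglia. Of 10 monocyte-derived markers 7 were higher, with sums of 703 to 1385 CPM in BMDM and 185 to 281 CPM in microglia. CPM here are counts scaled to a common library size with TMM factors, which correct for differences in library composition. Markers of other cells were present at low level. The summed T and NK cell list (8 genes) was 18.9 to 219 CPM in BMDM and 2.67 to 13.9 in microglia, with 1 gene called higher. The dendritic cell list (6 genes, 1 called higher) summed to 2.90 to 69.5 CPM in BMDM and 1.74 to 4.53 in microglia. The neutrophil list (10 genes, 1 called higher) summed to 60.5 to 118 CPM in BMDM and 37.8 to 41.6 in microglia. The neutrophil marker Ly6g had 1 count in BMDM 3, 1 in BMDM 5 and 0 in the other 6 libraries. Of the other neutrophil genes S100a8 was called, at 6.63 to 55.3 CPM in BMDM and 0.334 to 2.84 in microglia. S100a9 and Retnlg were also higher in every BMDM library than in any microglia library, but were not called. Their lowest BMDM values were 6.895 and 3.595 CPM, against highest microglia values of 4.89 and 0.999. Csf3r went the other way, at 5.33 to 16.02 CPM in BMDM and 24.45 to 34.38 in microglia. Csf3r made up most of each microglia sum of this list. Other lists reached higher sums in microglia, with ranges that overlapped those of BMDM. The red cell list (4 genes) summed to 20.9 to 98.3 CPM in BMDM and 78.1 to 163 in microglia, and its gene Hbb-bs was at 12.9 to 26.1 CPM in BMDM and 38.2 to 58.2 in microglia. The astrocyte or glioma cell list (8 genes) summed to 28.9 to 77.0 CPM in BMDM and 61.1 to 103 in microglia, and neither list held a called gene. Sox2 and Nes made up most of the astrocyte or glioma sum in each microglia library. Its genes Sox9, Gja1, Slc1a2, Gfap and Aqp4 had the higher mean in BMDM. The oligodendrocyte, neuron, endothelial and B cell lists overlapped between the groups, with sums of at most 103.5 CPM in any library and no gene called. The part of these cells in the results was not tested, and fewer cells of a type and less RNA per cell cannot be told apart in sorted bulk samples.

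The 5 genes that handle arginine all had positive log2 fold changes in BMDM over microglia, of which 2 passed the test, and the 5 polyamine and itaconate genes had negative ones, of which 1 passed. Arg2 rose 16.5-fold and Ass1 7.58-fold in BMDM, while Sms, which makes spermine, was 4.01-fold higher in microglia, a call that was lost when the counts of its pseudogenes were added. Arg1, Nos2 and Slc7a2 had fold changes of 10.6, 14.2 and 5.32 that did not pass the test. Odc1, Srm, Sat1 and Acod1 had log2 fold changes between -0.46 and -0.11 that did not pass it either. The test was edgeR's quasi-likelihood test on the counts of all 16467 genes that passed a filter on low counts, with p-values adjusted by Benjamini-Hochberg and called below 0.05. All 10 genes passed that filter, 2 were called higher and 1 lower in BMDM, and 7 were not called. Over all genes tested 1.11% were called higher and 0.814% lower, or 1.93% in either direction. DESeq2 called 4 of the 10 higher, adding Nos2 (log2 fold change 3.92, DESeq2 adjusted p = 0.0027) and Slc7a2 (2.49, DESeq2 adjusted p = 0.0117). It also called more genes over the whole table, 602 of 16467 higher and 320 lower, against 183 and 134 with edgeR. For 4 of the 10 genes no library of one group reached into the range of the other, 3 with BMDM above and 1 with BMDM below, where the shares over all genes tested were 4.32% and 8.66%. The median log2 fold change of the 10 was 1.15, against 0.08 over all genes tested, and 5 of the 10 values were positive and 5 negative.

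**Figure D1:**
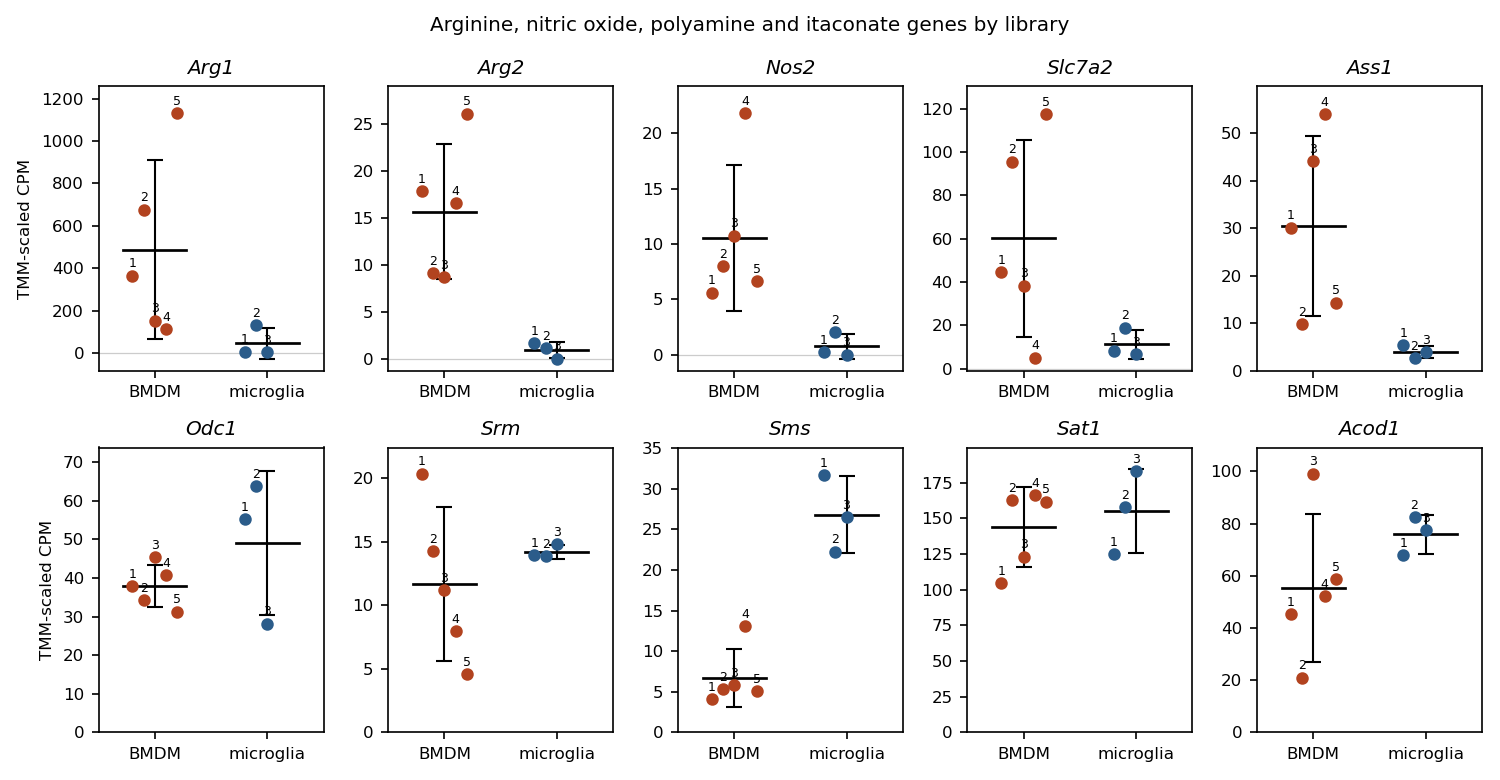
Level of each of the 10 genes in TMM-scaled CPM (linear axis) in BMDM and microglia. Points are single libraries with their replicate number, horizontal lines are means and vertical bars are SD (n = 5 BMDM and n = 3 microglia). Arg2, Nos2 and Ass1 lie above microglia in every BMDM library and Sms lies below, while Arg1 overlaps through microglia 2 at 130.5 CPM and Slc7a2 through BMDM 4 at 5.09 CPM.

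Arg1 (chromosome 10, 24915221 to 24927484, minus strand, GRCm38) encodes the cytosolic arginase. It was at 364, 676, 153, 113 and 1131 CPM in BMDM 1 to 5, against 5.57, 130.5 and 2.11 CPM in microglia 1 to 3. All 5 BMDM libraries were thus far above microglia 1 and microglia 3, but microglia 2 lay between BMDM 4 and BMDM 3, so the groups overlapped. The BMDM libraries themselves spread widely, with BMDM 4 lowest and BMDM 5 highest. The means were 487 ± 423 CPM in BMDM (SD, n = 5) and 46.1 ± 73.2 in microglia (n = 3), and the log2 fold change of 3.40 (SE 1.24, 95% interval 0.72 to 6.09) was not called, with an edgeR adjusted p of 0.221. Without microglia 2 it was 6.88 (SE 1.16), with an edgeR adjusted p of 0.0101. With 1 library left out at a time it ran from 2.77 to 6.88, and Arg1 was called in 4 of 18 settings. Of the 10 monocyte-derived markers, microglia 2 was the highest microglia library for 6. Clec4e was at 8.95 CPM there, against 1.79 and 1.78 CPM in microglia 1 and 3, Fn1 at 227 CPM, against 143.5 and 140.5, and Chil3 at 1.21 CPM, against 0 and 0. Ccr2 and Ly6c2 were at 3.32 and 2.62 CPM in microglia 2, below their 5.57 and 9.10 CPM in microglia 1. The summed list was 281 CPM in microglia 2, against 193 and 185 in microglia 1 and 3. Fn1 made up most of each of these sums. Fn1 and Vcan, which are among the 6, were not called between BMDM and microglia. Their log2 fold changes were -0.50 (edgeR adjusted p = 0.707) and 0.31 (edgeR adjusted p = 0.896). The summed microglial list was lowest in microglia 2 at 2653 CPM, against 4681 and 7863. Whether these markers bear on its Arg1 level was not tested.

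Arg2 (chromosome 12, 79130777 to 79156301, plus strand) encodes the mitochondrial arginase, which carries out the same reaction. It reached 17.8, 9.11, 8.69, 16.6 and 26.1 CPM in BMDM 1 to 5, against 1.63, 1.11 and 0 CPM in microglia 1 to 3. The groups did not overlap, and BMDM 3 was the BMDM library nearest to microglia. Microglia 3 had 0 counts, which allows up to 0.334 CPM (3 counts, counting error only). The means were 15.7 ± 7.18 CPM in BMDM (SD, n = 5) and 0.912 ± 0.832 in microglia (n = 3), and Arg2 rose by a log2 fold change of 4.04 (SE 0.96, edgeR adjusted p = 0.0446). The call was lost without any 1 library other than BMDM 5, with edgeR adjusted p from 0.0648 to 0.154, and the log2 fold change stayed between 3.40 and 4.75. The last 285 bases of the Arg2 transcript are also the end of Vti1b, a gene that runs toward it on the opposite strand. Vti1b, a vesicle fusion protein, was at 62.3, 79.8, 53.9, 20.9 and 73.0 CPM in BMDM, against 29.8, 37.7 and 23.1 CPM in microglia. Its log2 fold change was 0.94 (SE 0.42), with an edgeR adjusted p of 0.335. An antisense gene model within Arg2, Gm48780, had 0 counts in all BMDM libraries and 21, 11 and 26 counts in microglia. The sources used here do not say whether counting used strand, so reads of Arg2 and of these partners cannot be told apart.

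Slc7a2 (chromosome 8, 40862396 to 40922308) encodes CAT2, a carrier of cationic amino acids that supplies arginine to activated macrophages. It was at 44.5, 95.6, 38.3, 5.09 and 118 CPM in BMDM 1 to 5, against 8.31, 19.0 and 6.68 CPM in microglia 1 to 3. In 4 BMDM libraries it was above all microglia, and in BMDM 4 it was below all of them. The log2 fold change was 2.41 (SE 0.75, 95% interval 0.79 to 4.03) with an edgeR adjusted p of 0.141. Without BMDM 4 it was 2.67 (SE 0.53, edgeR adjusted p = 0.031), and with only BMDM 1 to 3 against microglia it was 2.40 (SE 0.48, edgeR adjusted p = 0.00808). That last setting called 1028 of 16182 genes higher and 1312 lower, against 183 and 134 of 16467 with all 8 libraries. With 1 library left out at a time, the log2 fold change of Slc7a2 ran from 2.03 to 2.95. It was called in 6 of 18 settings. BMDM 4 was also the lowest BMDM library for Arg1, so the carrier and the cytosolic arginase shared their lowest library as well as their highest, BMDM 5. These libraries had the fewest genes with a count (13346 in BMDM 4 and 14638 in BMDM 5), and BMDM 4 was lowest for Vti1b as well. Whether this bears on the shared order was not tested. The tail of the Slc7a2 transcript holds a stretch of about 100 bases that matches many other transcripts at 95% identity or more, so its counts are uncertain to that extent.

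Nos2 (chromosome 11, 78920787 to 78960254) encodes the inducible nitric oxide synthase. It was at 5.59, 8.004, 10.8, 21.8 and 6.63 CPM in BMDM 1 to 5, against 0.210, 2.01 and 0 CPM in microglia 1 to 3. Every BMDM library was above every microglia library, and microglia 2 held 20 of the 24 Nos2 counts of its group. The means were 10.6 ± 6.58 CPM in BMDM (SD, n = 5) and 0.741 ± 1.11 in microglia (n = 3). The log2 fold change of 3.83 (SE 1.21, 95% interval 1.24 to 6.41) was not called, at an edgeR adjusted p of 0.142. Without microglia 2 it was 6.22 (SE 1.498, edgeR adjusted p = 0.0628). The order of the BMDM libraries differed between the enzymes that compete for arginine. BMDM 4 had the highest Nos2 and the lowest Arg1 of its group, and BMDM 5 had the highest Arg1 and Arg2. These are also the libraries with the fewest genes with a count, and the order was not tested.

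Ass1 (chromosome 2, 31470207 to 31520672) encodes argininosuccinate synthase, which with argininosuccinate lyase turns citrulline back into arginine. It was at 30.1, 9.85, 44.2, 54.0 and 14.4 CPM in BMDM 1 to 5, against 5.36, 2.72 and 3.89 CPM in microglia 1 to 3. The groups did not overlap, and BMDM 2 was the BMDM library nearest to microglia. The means were 30.5 ± 18.9 CPM in BMDM (SD, n = 5) and 3.99 ± 1.33 in microglia (n = 3), a rise of 2.92 on the log2 scale (SE 0.62, 95% interval 1.61 to 4.24, edgeR adjusted p = 0.0227). It was called again with only BMDM 1 to 3 against microglia (2.80, SE 0.54, edgeR adjusted p = 0.00709), where 1028 of 16182 genes were called higher. The call was lost without any 1 microglia library or without BMDM 3 or BMDM 4, with edgeR adjusted p from 0.0553 to 0.127. BMDM 3 and BMDM 4 were highest for both Ass1 and Nos2, and BMDM 2 and BMDM 5, the lowest for Ass1, were highest for Arg1. Such orders rest on 5 libraries and were not tested. Asl, the lyase that acts after Ass1, did not follow it, at 9.42 ± 4.83 CPM in BMDM (SD, n = 5) and 8.51 ± 2.88 in microglia (n = 3), where the log2 fold change was 0.15 (SE 0.67, edgeR adjusted p = 0.967).

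Of the members, Ass1 and Sms were called and have a promoter in the RefSeq table for GRCm38.p6, and Acod1 is shown beside them as an inducible gene that was not called. The 250 bases before the RefSeq start site are given 5′ to 3′ on each gene's own strand. Capitals mark letters found by a search for CACGTG (the E-box), GGAANTTCC (a form of the kB motif), a longer kB form, an interferon response element and a STAT motif on both strands, and TATAAA (the TATA box) on the gene's strand. The longer kB form, the interferon element and the STAT motif occur in 0.36%, 2.98% and 5.85% of the windows and in none of these.
Ass1, chr2:31470020-31470269, plus strand: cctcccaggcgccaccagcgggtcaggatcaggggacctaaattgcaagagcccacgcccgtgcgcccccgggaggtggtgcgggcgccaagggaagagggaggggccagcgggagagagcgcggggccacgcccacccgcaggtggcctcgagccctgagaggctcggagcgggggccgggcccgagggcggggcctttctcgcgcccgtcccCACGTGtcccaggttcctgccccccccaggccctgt
Sms, chrX:157492288-157492537, minus strand: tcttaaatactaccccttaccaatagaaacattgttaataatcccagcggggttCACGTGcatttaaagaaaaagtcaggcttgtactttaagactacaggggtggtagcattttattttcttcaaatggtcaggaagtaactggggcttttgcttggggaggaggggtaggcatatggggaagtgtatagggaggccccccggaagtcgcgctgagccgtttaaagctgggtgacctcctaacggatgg
Acod1, chr14:103046762-103047011, plus strand: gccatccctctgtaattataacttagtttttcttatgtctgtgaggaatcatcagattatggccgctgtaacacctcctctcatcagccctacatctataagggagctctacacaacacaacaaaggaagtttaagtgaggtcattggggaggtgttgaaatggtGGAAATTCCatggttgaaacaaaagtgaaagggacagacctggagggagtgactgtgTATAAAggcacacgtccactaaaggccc
Ass1 holds an E-box 36 to 31 bases before its start and Sms one 196 to 191 bases before its start, a motif found in 6.02% of 32851 promoter windows of this length. These genes lay on opposite sides of the comparison. Acod1 holds the kB letters GGAAATTCC 85 to 77 bases before its start, a form found in 0.81% of windows, and a TATA box 28 to 23 bases before it (7.59%). The printed window of Acod1 is 44.4% G and C, that of Ass1 75.6% and that of Sms 47.2%. The window of a second Sms start site is 75.2% G and C, close to that of Ass1. That second Sms window and the windows of Odc1 and Sat1 held none of these letters. A match is a description of the letters only.

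**Figure D2:**
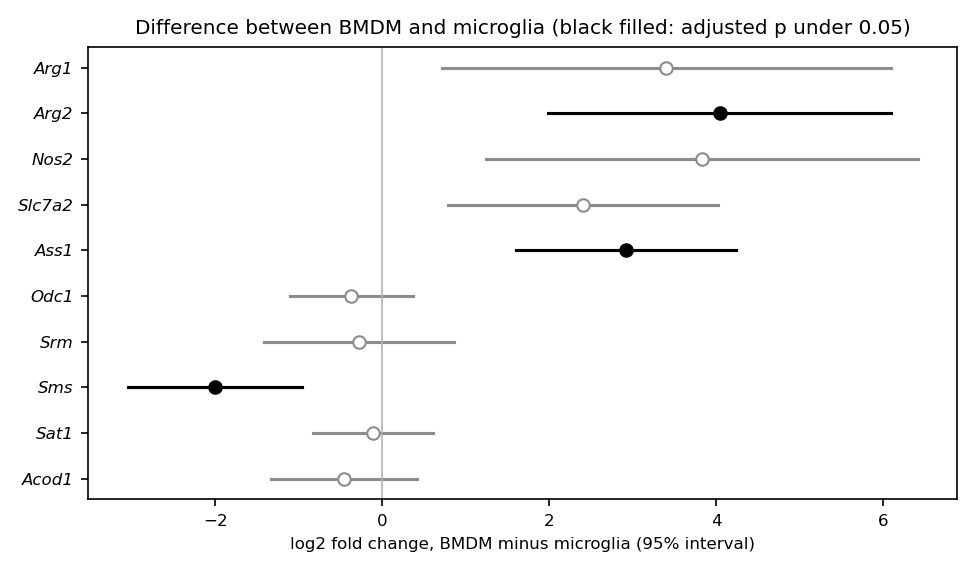
Log2 fold change of each gene, BMDM minus microglia, from edgeR, with its 95% interval as a horizontal line (n = 5 BMDM and n = 3 microglia). Black filled points passed an adjusted p of 0.05. The 5 arginine genes at the top lie between 2.41 and 4.04, and of the polyamine and itaconate genes below them, Sms at -2.004 is the only one whose interval does not cross 0.

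Polyamine synthesis starts with ornithine decarboxylase, encoded by Odc1 (chromosome 12, 17544794 to 17551505), which makes putrescine. Odc1 was at 37.8, 34.2, 45.3, 40.8 and 31.2 CPM in BMDM 1 to 5, against 55.2, 63.8 and 28.2 CPM in microglia 1 to 3. Microglia 3 lay below all BMDM libraries and the other microglia above them. Gm22748, a snoRNA within Odc1 on the same strand, was at 115, 101, 28.6, 32.2 and 0.276 CPM in BMDM, against 62.5, 54.6 and 33.3 CPM in microglia, and its reads and those of Odc1 may be confused. The log2 fold change was -0.37 (SE 0.35, 95% interval -1.11 to 0.37, edgeR adjusted p = 0.75), and a moderate fall lies within the interval. Srm (chromosome 4, 148591503 to 148594993), which makes spermidine, was at 20.4, 14.3, 11.2, 7.96 and 4.56 CPM in BMDM 1 to 5, against 13.9, 13.9 and 14.8 CPM in microglia. The microglia were nearly equal, and the BMDM libraries lay on both sides of them, with BMDM 4 and BMDM 5 lowest. Srm had a log2 fold change of -0.28 (SE 0.53, 95% interval -1.42 to 0.86, edgeR adjusted p = 0.903), and 0.12 (SE 0.36) with only BMDM 1 to 3.

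Sms (chromosome X, 157443855 to 157492287, minus strand), which adds the last aminopropyl group to make spermine, was the only member that fell. It was at 4.13, 5.29, 5.83, 13.1 and 5.11 CPM in BMDM 1 to 5, against 31.7, 22.2 and 26.5 CPM in microglia 1 to 3. The groups did not overlap, and BMDM 4 was the BMDM library nearest to microglia. The means were 6.68 ± 3.61 CPM in BMDM (SD, n = 5) and 26.8 ± 4.72 in microglia (n = 3), and Sms fell by 2.004 on the log2 scale (SE 0.49, 95% interval -3.05 to -0.96). Its edgeR adjusted p of 0.04999 lay just under the threshold. Without any 1 microglia library, or without BMDM 1, 2 or 3, the call was lost, with edgeR adjusted p from 0.107 to 0.307 and log2 fold changes from -2.18 to -1.86. Without BMDM 4 it was -2.41 (SE 0.39, edgeR adjusted p = 0.0141), and with only BMDM 1 to 3 it was -2.38 (SE 0.36, edgeR adjusted p = 0.00243). That last setting called 1312 of 16182 genes lower. Sms has near-identical processed pseudogenes, 6 of which match its transcript end over 241 or more bases at 95% identity or more. Of these Gm8952 had 41 counts in BMDM 5, where Sms itself had 37, and 1 in BMDM 3. Gm8234 had 9 counts in microglia 1 and 1 in BMDM 2, and the other pseudogenes had 0. With these counts added, Sms was at 4.13, 5.42, 5.95, 13.1 and 10.8 CPM in BMDM, against 32.1, 22.2 and 26.5 CPM in microglia. The groups still did not overlap, but the call was lost, with a log2 fold change of -1.78 (SE 0.48, edgeR adjusted p = 0.083). The sources used here do not state what was done with reads of more than 1 match.

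Sms and Sat1 are X-linked, and the libraries differed in sex-linked RNA. Xist, the RNA that silences 1 X chromosome in female cells, was at 510, 369, 633, 300.2 and 7.05 CPM in BMDM 1 to 5, against 367, 204 and 1806 in microglia 1 to 3. The Y-linked gene Ddx3y was at 0.133, 0.123, 1.72, 55.2 and 140.7 CPM in BMDM, against 19.8, 79.7 and 0 in microglia. BMDM 4, microglia 1 and microglia 2 thus held both kinds of RNA, BMDM 5 held little Xist, and BMDM 1 to 3 and microglia 3 held little or no Ddx3y. Among those last 4 libraries Sms was at 4.13, 5.29 and 5.83 CPM in BMDM, against 26.5 CPM in microglia 3. The part of sex in the Sms result was not tested. Nor was that of the red cell, astrocyte and glioma markers, whose lists reached higher sums in microglia with overlapping ranges.

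Sat1 (chromosome X, 155213132 to 155216449), which acetylates spermidine and spermine for export or breakdown, had the smallest log2 fold change of the 10. It was at 105, 163, 123, 166 and 162 CPM in BMDM 1 to 5, against 125, 158 and 183 CPM in microglia 1 to 3. The groups covered nearly the same range. The log2 fold change was -0.11 (SE 0.34, 95% interval -0.83 to 0.61, edgeR adjusted p = 0.946), and 0.01 with library totals alone in place of TMM factors.

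Acod1 (chromosome 14, 103046977 to 103056573) encodes the enzyme that makes itaconate from cis-aconitate in activated macrophages. It was at 45.3, 20.9, 99.1, 52.2 and 58.6 CPM in BMDM 1 to 5, against 67.8, 82.6 and 77.5 CPM in microglia 1 to 3. In 4 of 5 BMDM libraries it was below all microglia, and in BMDM 3 it was above them. The means were 55.2 ± 28.4 CPM in BMDM (SD, n = 5) and 76.0 ± 7.50 in microglia (n = 3). The log2 fold change was -0.46 (SE 0.41, 95% interval -1.34 to 0.42, edgeR adjusted p = 0.74). Without BMDM 3 it was -0.78 (SE 0.39, edgeR adjusted p = 0.488). The interval of Acod1 lay below that of Nos2 (1.24 to 6.41), although both genes are known to be induced by the same stimuli in mouse macrophages. The difference between the genes was not tested.

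**Figure D3:**
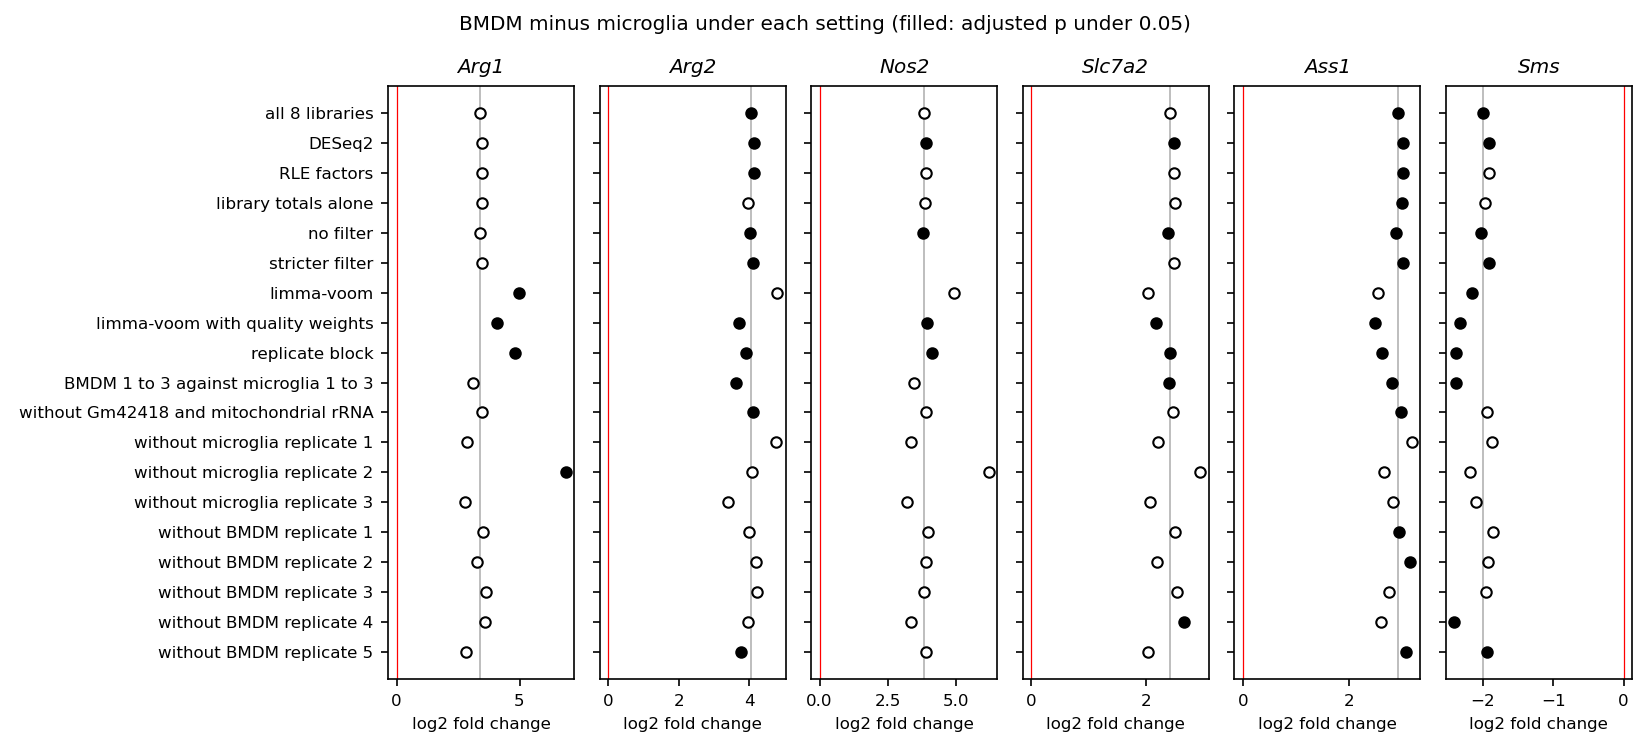
Log2 fold change, BMDM minus microglia, of the 6 genes with the largest absolute change under each setting, 1 setting per line, with a filled point where the adjusted p was under 0.05. The grey line marks the value with all 8 libraries and the red line marks 0. Every gene kept its sign, the largest move is that of Arg1 to 6.88 without microglia 2, and Ass1 was called in 12 of 18 settings, Arg2 and Sms in 9 of 18, Slc7a2 in 6 of 18 and Arg1 in 4 of 18.

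The genes around these enzymes were read in 5 lists of 77 genes, of which 76 were in the table and 67 passed the filter. Of the 67, 2 were called higher in BMDM and 0 lower, with a median log2 fold change of 0.10. The shares called over all 16467 genes tested were 1.11% higher and 0.814% lower. By edgeR at an unadjusted p under 0.05, 8 were higher and 5 lower, and DESeq2 called 3 higher and 1 lower. Over all genes tested that unadjusted p gave 1069 higher and 1197 lower.

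**Figure D4:**
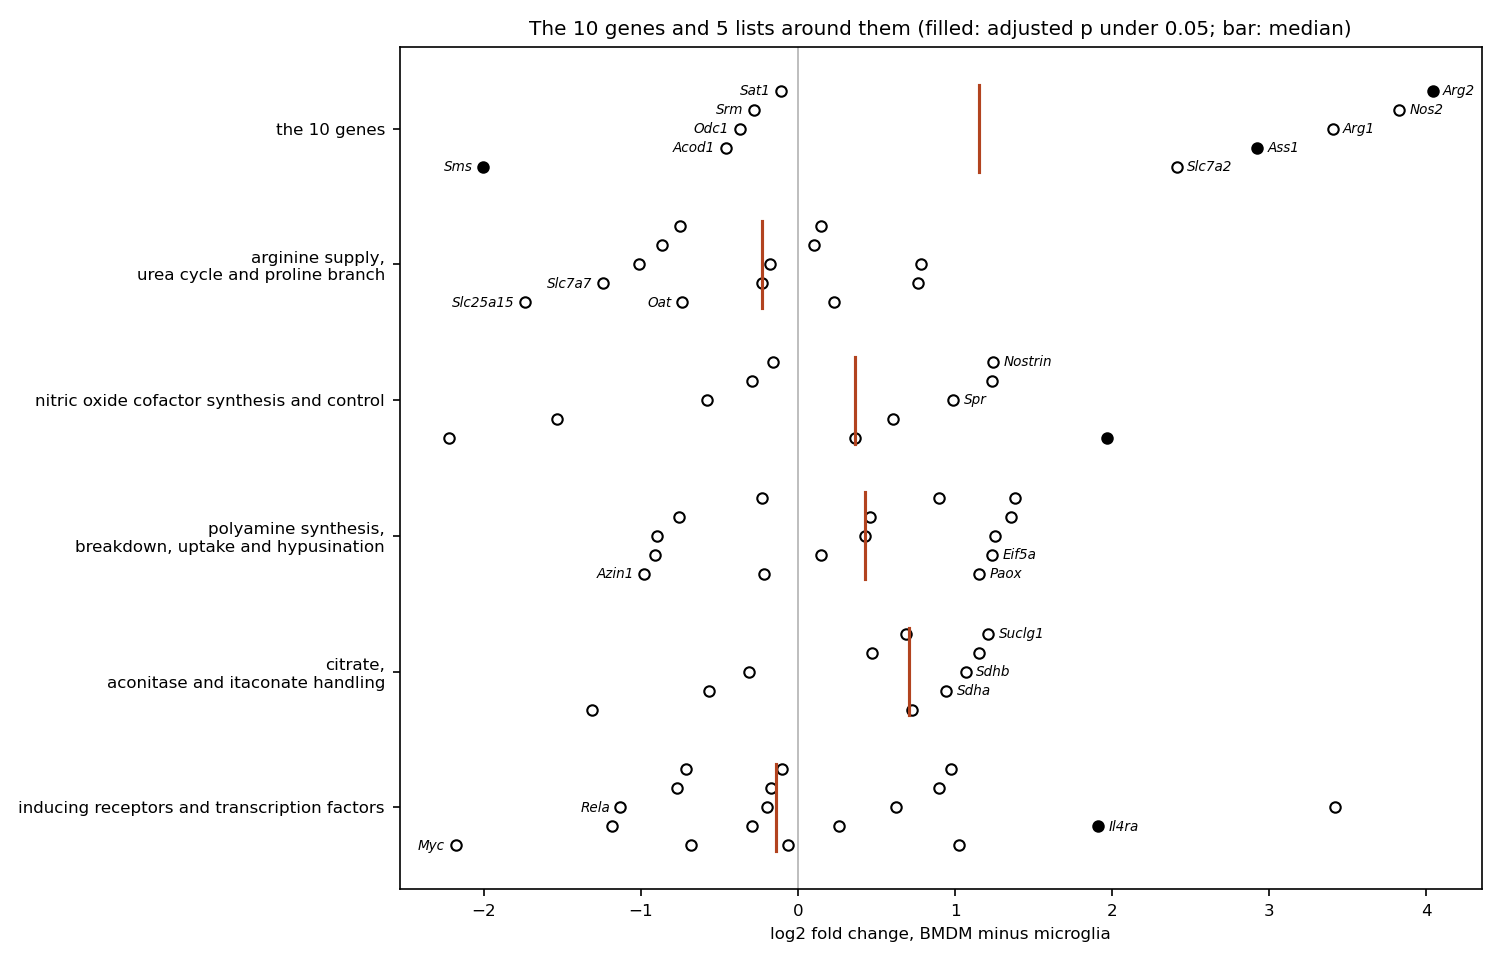
Log2 fold change, BMDM minus microglia, of the 10 genes (top) and of the tested genes of the 5 lists around them, 1 point per gene, with the median of each list as a vertical bar. Filled points passed an adjusted p of 0.05 and named points are those described in the text. Of the 10 genes 5 lie at 2.41 or above and 5 at -0.11 or below, while the lists have medians between -0.23 and 0.70.

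Among 13 tested genes of arginine supply, the urea cycle and the proline branch, none was called in edgeR (0 higher and 0 lower, with 1 lower at an unadjusted p under 0.05), and the median log2 fold change was -0.23. The only one past an unadjusted p of 0.05 was Slc7a7, a carrier that exports arginine in exchange for neutral amino acids. It was at 14.7, 16.3, 38.7, 23.4 and 10.1 CPM in BMDM, against 45.5, 34.5 and 66.4 CPM in microglia. Only BMDM 3 reached into the microglia range, and the log2 fold change was -1.24 (SE 0.43, edgeR adjusted p = 0.19), of opposite sign to that of Slc7a2. Slc25a15, the mitochondrial ornithine carrier, and Oat, which turns ornithine toward proline and glutamate, had log2 fold changes of -1.74 (SE 1.04) and -0.74 (SE 0.46), with edgeR adjusted p of 0.536 and 0.561. The urea cycle genes Cps1 and Otc did not pass the filter, Cps1 with 0 counts in all 8 libraries.

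Among 11 tested genes of nitric oxide cofactor synthesis and control, 1 rose, none fell and the median was 0.36. Spr, an enzyme of tetrahydrobiopterin synthesis, was at 0.99 (SE 0.50, edgeR adjusted p = 0.415), and Nostrin, a trafficking protein of the endothelial synthase, at 1.24 (SE 0.69, edgeR adjusted p = 0.484). The other synthases, Nos1 and Nos3, had log2 fold changes of -0.29 (SE 1.04) and -1.54 (SE 1.73), with edgeR adjusted p of 0.955 and 0.809.

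The polyamine list had 15 tested genes, none of them called in edgeR (0 higher and 0 lower, and 3 higher and 1 lower at an unadjusted p under 0.05), with a median of 0.42. Azin1, which frees ornithine decarboxylase from its antizyme, was at 51.8, 62.6, 68.8, 75.9 and 212 CPM in BMDM 1 to 5, against 163, 199 and 196 CPM in microglia 1 to 3. BMDM 1 to 4 were below all microglia and BMDM 5 was above them. The log2 fold change was -0.98 (SE 0.44, edgeR adjusted p = 0.337), and -1.53 (SE 0.26, edgeR adjusted p = 0.00603) without BMDM 5. Leaving out BMDM 5 called 602 of 15864 genes lower. Paox, a polyamine oxidase, and Eif5a, the factor that carries the spermidine-derived residue hypusine, were at 1.15 (SE 0.43) and 1.24 (SE 0.56), with edgeR adjusted p of 0.223 and 0.335. Both were called with only BMDM 1 to 3, at 1.46 and 1.304 with edgeR adjusted p of 0.0144 and 0.0165. That setting called 1028 of 16182 genes higher.

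Of 10 tested genes of citrate, aconitase and itaconate handling none was called in edgeR (0 higher and 0 lower, with 2 higher at an unadjusted p under 0.05), and the median was 0.70. Sdha and Sdhb, subunits of succinate dehydrogenase, which itaconate inhibits, had log2 fold changes of 0.94 (SE 0.32) and 1.07 (SE 0.47), with edgeR adjusted p of 0.182 and 0.321. Suclg1, a subunit of succinyl-CoA ligase, was at 1.21 (SE 0.62, edgeR adjusted p = 0.426). All 3 were called higher with only BMDM 1 to 3, at 0.97, 1.48 and 1.62, with edgeR adjusted p of 0.0215, 0.00569 and 0.0144. That setting called 1028 of 16182 genes higher, so a call there was far more common than with all 8 libraries.

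Receptors and transcription factors known to induce Arg1, Nos2 or Odc1 were tested for all 18 listed genes, of which 1 rose and none fell, with a median of -0.14. Il4ra, the receptor chain shared by interleukin 4 and 13, which signals through Stat6, rose by 1.91 (SE 0.40, edgeR adjusted p = 0.0218). It was at 338, 613, 489, 369 and 354 CPM in BMDM 1 to 5, against 90.8, 139 and 116 CPM in microglia 1 to 3. The groups did not overlap. Within BMDM the order matched that of Arg1 only in part. BMDM 5, highest for Arg1, was among the lowest for Il4ra, while BMDM 2, next for Arg1 at 676 CPM, was highest for Il4ra. Microglia 2 was the highest microglia library for both genes. Whether Il4ra bears on the Arg1 level was not tested. The call of Il4ra was lost without any 1 microglia library or without BMDM 3, with edgeR adjusted p from 0.0545 to 0.19. Stat6 had a log2 fold change of 0.90 (SE 0.42, edgeR adjusted p = 0.361). Myc, a transcription factor that drives Odc1 in mouse cells, was at 1.73, 4.43, 5.15, 4.78 and 17.1 CPM in BMDM, against 25.8, 36.7 and 27.9 CPM in microglia. The groups did not overlap, and the log2 fold change of -2.18 (SE 0.60, edgeR adjusted p = 0.0842) was called without BMDM 5 (-2.91, SE 0.45, edgeR adjusted p = 0.0039). Leaving out BMDM 5 called 602 of 15864 genes lower. Rela, a subunit of NF-kB, was at -1.13 (SE 0.38, edgeR adjusted p = 0.174).

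The genes whose pattern over the 8 libraries was most like that of a member were taken by the smallest root mean square difference between log2 CPM profiles, each centred on the mean of its group means, among genes with at least 10 CPM in the higher group. For Arg1 they were F7 (coagulation factor VII, 0.92), Ltb4r1 (the leukotriene B4 receptor, 0.96) and Mmp13 (a collagenase, 1.01). Mmp13 was at 46.7, 148, 11.4, 8.60 and 58.7 CPM in BMDM, against 0.0526, 11.6 and 0.779 CPM in microglia. Like Arg1, Mmp13 and Ltb4r1 had their highest microglia value in microglia 2 and their lowest BMDM value in BMDM 4, and F7, at 3.12 CPM in microglia 2, had 0 counts in the other microglia. Ltb4r1 was highest in BMDM 5, as Arg1 was, but Mmp13 and F7 were highest in BMDM 2. For Nos2 they were Rnd3 (0.66), Trem1 (a myeloid receptor that amplifies inflammation, 0.71) and Slfn1 (0.72), with log2 fold changes of 3.62 (SE 0.71), 3.803 (SE 0.58) and 4.16 (SE 0.62). For Acod1 they were Gpr89 (0.22), Pik3c3 (a class III phosphoinositide kinase, 0.26) and Lrch1 (0.29), with log2 fold changes from -0.94 to -0.26. The measure takes in the difference between the groups and the pattern over single libraries. Both the direction of these genes and the high and low libraries they share with their member thus follow from how they were chosen. Because it is in log2 units, a small value is easier to reach for a gene such as Acod1 that varies little.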

How the data were processed

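Gene expression was measured by QuantSeq 3′ FWD sequencing on a NextSeq500 in 5 BMDM and 3 microglia libraries. The authors deposited raw counts of reads for each gene in a single table. Per the submitters' processing notes the tools were featureCounts, STAR, cutadapt, FastQC and DESeq2, with mm10 as build; versions, the use of strand and the handling of reads with more than 1 match are not stated. Because each transcript is counted at its 3′ end, overlapping ends and repeats there touch the counts.

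From these counts, libraries were scaled with TMM and tested with edgeR 4.0.16 (R 4.3.3), BMDM minus microglia, after filterByExpr (minimum count 10, minimum total 15), with robust quasi-likelihood fits and Benjamini-Hochberg adjustment at 0.05. Standard errors come from the F statistic, and intervals from the t distribution of the fit. Positions and transcript ends are GENCODE M21 (GRCm38), and ends (300 bases) were compared by blastn 2.17.0. The scripts were tested on simulated data, where planted log2 fold changes of 1, 2, 3 and 4 were called in 2%, 20%, 32% and 54% of cases. Of 61 calls there, 7 were false. Many differences of the size seen here would thus be missed, and a gene not called may still differ. No pair of libraries of a group was alike within sampling noise (lowest chi-square per degree of freedom 21.1). Alternatives were DESeq2 1.42.0, limma-voom 3.58.1 with and without sample weights, other scalings and filters, a replicate block, and libraries left out. Named genes were the 10 members, called list genes with the 3 smallest p per list, and the 3 most similar genes of Arg1, Nos2 and Acod1; Asl, Nos1, Nos3, Cps1, Otc, Stat6, Vti1b, Gm48780, Xist and Ddx3y were named after their values were seen, and 1 called list gene is not reported here. Count intervals and floors cover counting error only, since reads carry no molecular identifiers. The members and lists were chosen with earlier results of these data known.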

Additional observations from a re-analysis of the deposited data

Results flagged for a closer look

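In 4 of the 34 genes checked, 1 BMDM library stood apart from the other 4 by Dixon's criterion (gap over range above 0.71); chance flags about 1 in 20 groups. Sms was at 13.1 CPM in BMDM 4, with the next BMDM library at 5.83. Azin1 was at 212 CPM in BMDM 5, with the next at 75.9, and Myc was at 17.1 CPM in BMDM 5, with the next at 5.15. F7 was at 84.1 CPM in BMDM 2, with the next at 27.5.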

How the results depend on the processing

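Of the 10 members, called with 2 higher and 1 lower, the number called higher was 4 with DESeq2, 4 with no filter, 1 with library totals alone, 1 with limma-voom, 5 with limma-voom and sample weights, and 0 to 2 with 1 library left out. The number called lower was 0 with RLE factors, with library totals alone and without Gm42418 and mitochondrial rRNA, and 0 to 1 with 1 library left out. In the 5 lists, called higher 2 and lower 0, sample weights gave 10 and 10, BMDM 1 to 3 alone 11 and 8, and 1 library left out 0 to 8 and 0 to 6; DESeq2, no filter and limma-voom each gave 1 lower. Over all genes, 183 were higher and 134 lower. DESeq2 gave 602 and 320, no filter 403 and 318, sample weights 1063 and 1668, BMDM 1 to 3 alone 1028 and 1312, limma-voom 250 lower, and 1 library left out 58 to 536 higher and 46 to 602 lower.

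The replicate numbers are shared between groups, and the labels do not say whether they pair libraries. Deviations of same-numbered libraries correlated at 0.279, 0.129 and -0.006, and those of differently numbered ones at -0.3 to 0.239. So few values cannot decide whether same-numbered libraries belong together. With the replicate block, 1449 genes were higher and 1774 lower, 5 members higher and 1 lower, and 13 list genes higher and 10 lower. Srm turned positive with sample weights (0.0158), the replicate block (0.067) and BMDM 1 to 3 alone (0.119), and Sat1 with library totals alone (0.0108). Relative to the values given, library totals alone moved the median of all genes by 0.13, limma-voom by -0.31 and sample weights by -0.11. Adding the counts of its pseudogenes, an alternative chosen after seeing the data, ended the call of Sms (-1.78, edgeR adjusted p = 0.083). The cause of the other changes was not tested. Counts are low for Nos2 and Arg2 in microglia, with 24 and 42 counts in all, so their folds are imprecise.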
